A study of Mus musculus with 12 samples.

Results

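The 10 genes followed here mark fibroblasts of the dermis or their lineages, and were measured across all 12 samples of a mouse wounding study: Pdgfra, Pdgfrb, Dpp4, Pi16, En1, Prrx1, Twist2, Cd34, Ly6a and Lrig1. They were taken by symbol, and 10 of 10 were found among the 55401 genes of the deposited table. All 10 also passed the filter on low values (a mean of at least 1 FPKM), with no sample below 1.39 FPKM. FPKM is the number of fragments scaled to transcript length and to the sequencing depth of the library. The samples were dermis of C57BL/6 mice aged 6 weeks, either wild type (WT) or Cthrc1-/-, taken on day 0 or day 7, which gives 4 groups of 3 biological replicates. The design names paired wounds of matched size. Cthrc1 encodes a secreted protein with a short collagen-like stretch. The labels used here do not say how the Cthrc1 allele was made, or how the day 0 dermis was handled. The comparisons ask whether these markers differed between genotypes on each day, and between days in each genotype.

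Fibroblasts of the skin make and remodel its collagen-rich matrix. They come from several embryonic lineages and settle in layers: a papillary layer under the epidermis, a reticular layer below it, and the fascia and fat beneath. Pdgfra and Pdgfrb encode the receptor tyrosine kinases for platelet-derived growth factors, and Pdgfra is the usual pan-fibroblast marker, whereas pericytes also carry Pdgfrb. En1 and Prrx1 encode homeodomain transcription factors that mark the dorsal and the ventral and limb dermal lineages, and Twist2 encodes a basic helix-loop-helix factor of dermal progenitors. Dpp4 encodes a membrane peptidase and Pi16 a peptidase inhibitor, both of which mark fibroblasts placed early in the fibroblast hierarchy. Cd34 and Ly6a encode surface glycoproteins that are also found on endothelium, and in mice Cd34 marks the hair follicle bulge too. Lrig1 encodes a transmembrane inhibitor of growth factor receptors that marks papillary fibroblasts and stem cells of the upper hair follicle.

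Total counts ran from 48329668 to 76938132 per sample. Cthrc1 was checked first: it had at most 15 counts in any library labelled Cthrc1-/- and at least 1813 in any WT library. A pair of libraries, Cthrc1-/- day 0 replicate 3 and WT day 7 replicate 1, was singled out after the values were seen, by no set rule. The former held the lowest of the 12 values for 8 members, and the latter the highest for 5. Other libraries also differed from the rest of their groups in the sums below. Defining fibroblast genes were present throughout: the summed level of 14 pan-fibroblast genes (Col1a1, Dcn and others) was 5694 to 7255 FPKM in WT and 509 to 3021 FPKM in knockout samples of day 0. On day 7 it was 4196 to 6394 FPKM in WT and 2770 to 4390 FPKM in the knockout. Other cell types were present in the dermis samples as well. Inner root sheath genes of growing (anagen) hair follicles, 8 in number, summed to between 2.77 and 5.60 FPKM in WT on day 0, and to 232, 4854 and 11676 FPKM in the knockout replicates 1, 2 and 3. On day 7 these genes summed to 1681 to 4077 FPKM in WT and 512 to 5367 FPKM in Cthrc1-/-. Of 10 immune cell genes, the sum was 1585 FPKM in WT day 7 replicate 1 against 356 and 71.9 FPKM in replicates 2 and 3.

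**Figure D1:**
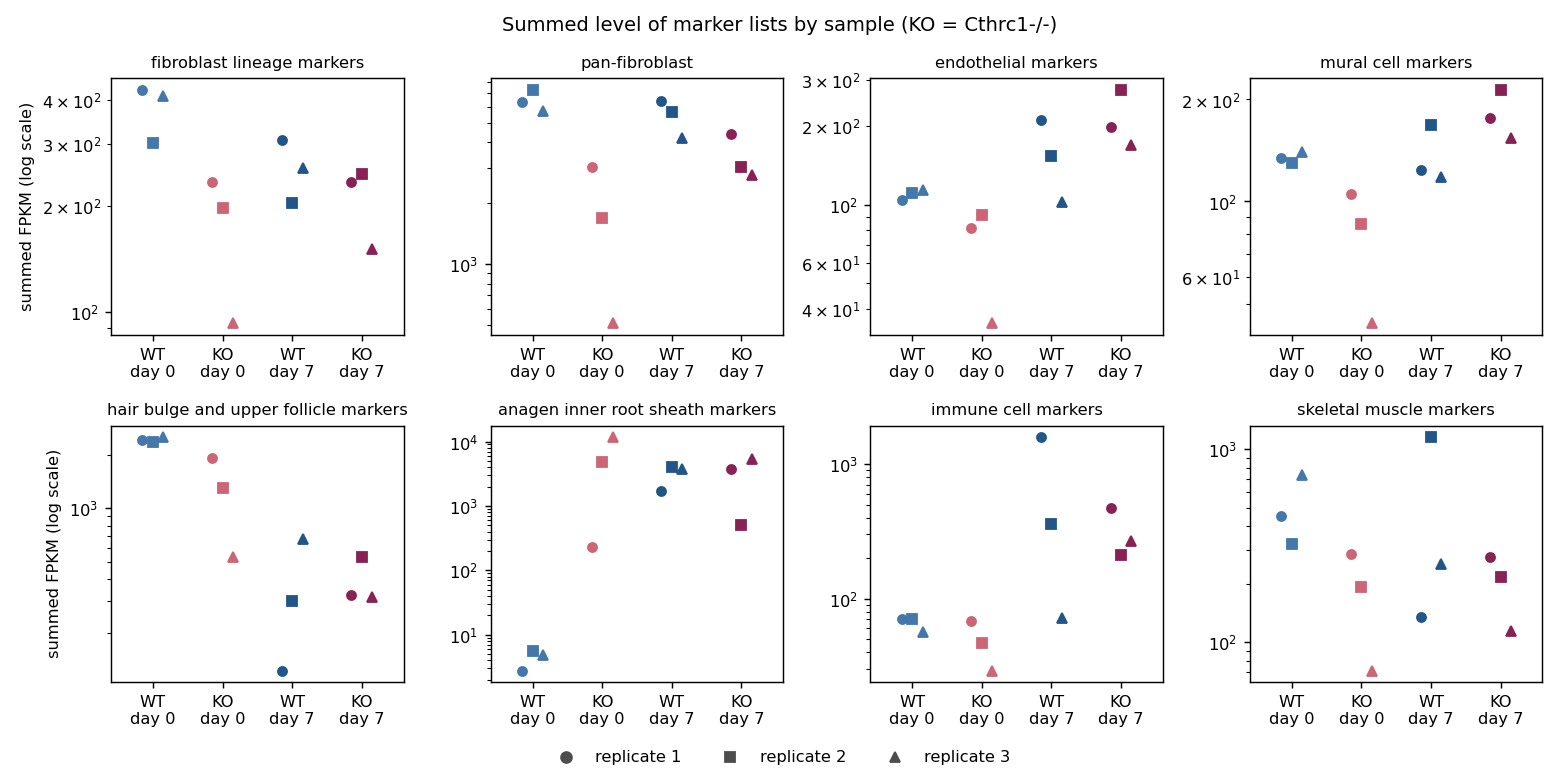
Summed FPKM (log axis) of the 10 fibroblast lineage markers and of 7 marker lists in each of the 12 samples, by group, with replicates as symbols. Cthrc1-/- day 0 replicate 3 was lowest for the fibroblast lineage markers (92.6 FPKM) and highest for the inner root sheath genes (11676 FPKM).

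The promoters of 4 members are shown, as those whose levels ran most alike over the samples (Pdgfra and En1) and 2 whose levels ran apart from these (Cd34 and Lrig1). The RefSeq table (GRCm38.p6) held promoters for 8 members, all but Pdgfrb and Ly6a. Each sequence is the 250 bases before the RefSeq start site, 5′ to 3′ on the gene's strand. These start sites can differ from the ends of the gene spans given below, which are from GENCODE. The En1 sequence ends at 120602486, within its gene span, which starts at 120602418. Capitals mark E-boxes (CANNTG), the letters bound by basic helix-loop-helix factors such as Twist2.
Pdgfra (chr5:75152001-75152250, plus strand): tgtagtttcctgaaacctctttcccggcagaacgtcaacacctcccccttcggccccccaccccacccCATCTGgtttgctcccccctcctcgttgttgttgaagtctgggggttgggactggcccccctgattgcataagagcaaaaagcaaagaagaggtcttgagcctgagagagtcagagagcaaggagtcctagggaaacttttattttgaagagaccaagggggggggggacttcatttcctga
En1 (chr1:120602237-120602486, plus strand): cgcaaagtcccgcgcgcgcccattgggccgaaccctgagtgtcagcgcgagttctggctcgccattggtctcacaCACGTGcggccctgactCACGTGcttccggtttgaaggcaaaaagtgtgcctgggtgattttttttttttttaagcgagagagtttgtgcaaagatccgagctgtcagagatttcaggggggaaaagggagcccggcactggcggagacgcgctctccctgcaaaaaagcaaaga
Cd34 (chr1:194938571-194938820, plus strand): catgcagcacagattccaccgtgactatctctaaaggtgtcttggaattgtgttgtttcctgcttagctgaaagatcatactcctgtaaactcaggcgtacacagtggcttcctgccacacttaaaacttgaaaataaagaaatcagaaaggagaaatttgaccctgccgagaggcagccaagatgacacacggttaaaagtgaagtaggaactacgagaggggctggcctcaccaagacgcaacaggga
Lrig1 (chr6:94700146-94700395, minus strand): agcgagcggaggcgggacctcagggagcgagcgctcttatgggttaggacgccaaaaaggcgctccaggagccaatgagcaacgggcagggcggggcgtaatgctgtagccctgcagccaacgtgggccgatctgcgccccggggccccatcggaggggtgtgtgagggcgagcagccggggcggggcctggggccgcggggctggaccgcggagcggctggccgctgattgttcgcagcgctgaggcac
In the 300-base window from 250 bases before to 50 after the start, read on both strands, an E-box was found in 4 of the 8 member promoters (Pdgfra, En1, Dpp4 and Pi16) and in 72.3% of all 32851 promoters of the table. The homeodomain core TAATTA was found in 1 of 8, that of Prrx1, and in 5.29% of all promoters. The TATA box TATAAA was found in 1 of 8, that of Dpp4, and in 13.6% of all. None of the 3 motifs overlapped another in these windows. The upstream bases of En1 held E-boxes at -175 and -158, both CACGTG, and those of Pdgfra held CATCTG at -182, counted from the start site. GC content was 71.6% upstream of Lrig1, 56% for En1, 54.4% for Pdgfra and 46.4% for Cd34.

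In WT day 0 dermis the 10 genes spanned a wide range of levels, compared here per length. Ly6a was highest, at 223 ± 69.6 FPKM (SD, n = 3), followed by Cd34 at 64.0 ± 3.87 and Lrig1 at 24.0 ± 2.92 FPKM. Pdgfrb (18.4 ± 1.46 FPKM) and Pi16 (15.2 ± 2.40) followed and overlapped each other. Twist2 was next, at 10.1 ± 0.687 FPKM. Dpp4 (7.58 ± 0.563), Pdgfra (6.88 ± 0.481) and Prrx1 (6.76 ± 2.67) could not be ordered beyond their spread, and En1 was lowest at 3.03 ± 0.0414 FPKM. Ly6a stayed highest, with no overlap with the next gene, in all 4 groups. In WT day 7 each remaining pair of neighbours in the order, from Cd34 (29.4 FPKM) down to En1 (6.81 FPKM), overlapped.

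**Figure D2:**
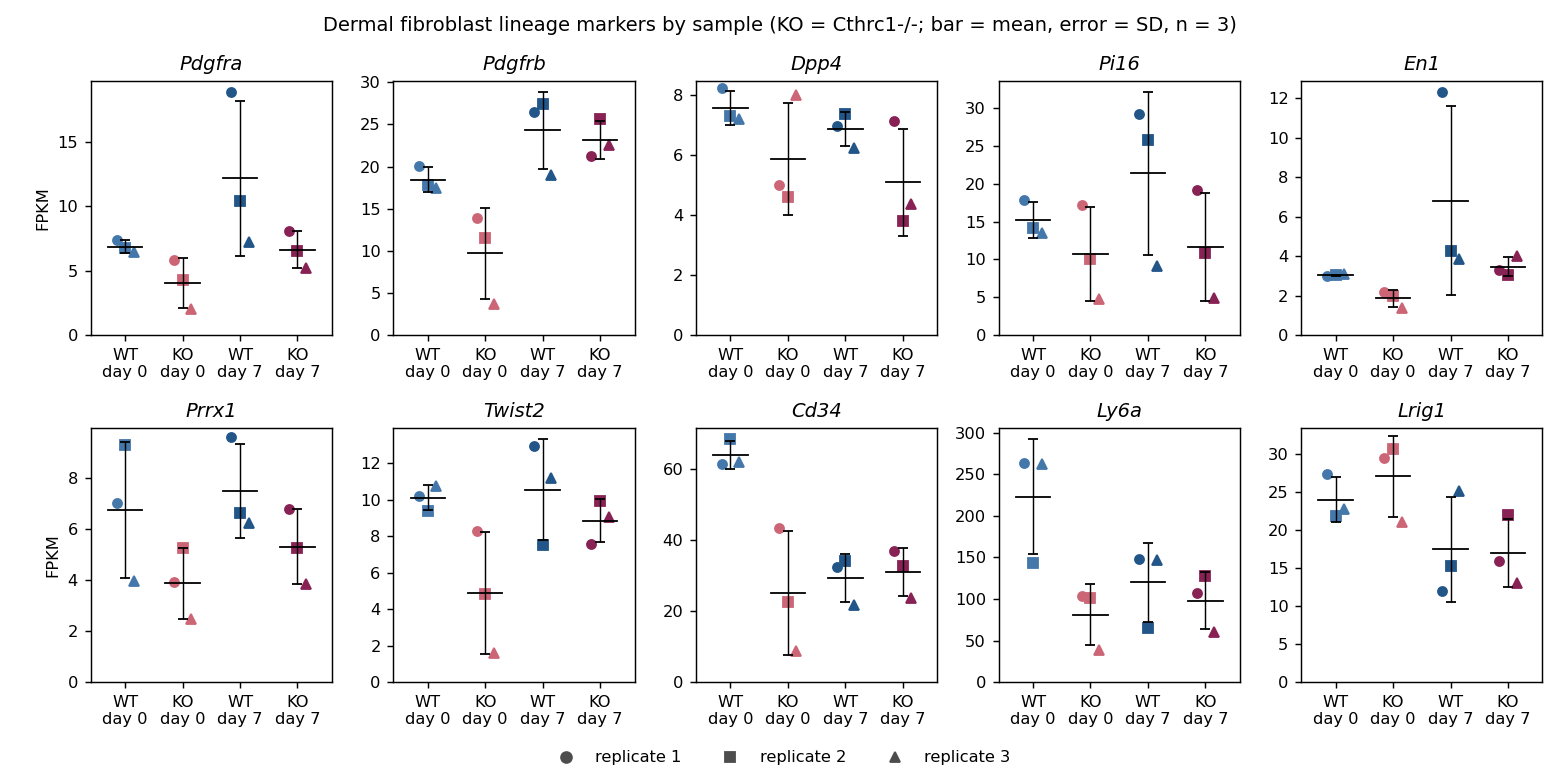
FPKM of each marker (linear axes from 0) by group, with the 3 replicates as symbols, the mean as a line and the SD as an error bar. Cd34 had 61.5 to 68.4 FPKM in WT day 0, above every other sample, whose highest value was 43.5 FPKM.

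The first comparison was between genotypes on day 0. Of the 10 markers, 9 were lower in Cthrc1-/- than in WT by their fitted log2 change, and the values of 6 (Pdgfra, Pdgfrb, En1, Twist2, Cd34 and Ly6a) did not overlap between the groups. A log2 change below 0 was found for 53.6% of all 14313 genes tested. No member passed the edgeR test at an adjusted p of 0.05, which 5.78% of all genes passed. Without adjustment 5 members had a p under 0.05, all lower, against 14.8% of all genes in that direction. DESeq2 called 2 members (Cd34 and Ly6a) and 2787 of the 14313 genes. By limma on log2(FPKM + 1) and log2(FPKM + 0.1), 0 members were called, beside 601 and 694 genes. Ranges that did not overlap, with Cthrc1-/- lower, occurred in 19.8% of all genes. The members' median log2 change was -0.87, beside -0.05 over all genes. Genes of other cell types were lower as well: 10 of 10 skeletal muscle genes were below 0 (median -1.57, 9 without overlap), as were 7 of 7 adipocyte genes tested (median -1.75), with 0 called in either list. The muscle genes summed to 324 to 739 FPKM in WT and 71.5 to 286 FPKM in the knockout, the adipocyte genes to 167 to 216 and 78.0 to 113 FPKM, and their part in the members' values was not tested. In bulk tissue, fewer cells of a type and less RNA per cell cannot be told apart.

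Among the receptors, Pdgfra (ENSMUSG00000029231, chr5:75152292-75198215, plus strand) had 7.40, 6.78 and 6.46 FPKM in WT day 0 and 5.84, 4.28 and 2.04 FPKM in Cthrc1-/- day 0. All 3 knockout samples lay below all 3 WT samples. The fitted log2 difference was -0.84 ± 0.45 (± SE here and below; edgeR adjusted p 0.244). Pdgfrb (ENSMUSG00000024620, chr18:61045150-61085061, plus strand) had 20.1, 17.8 and 17.4 FPKM in WT and 14.0, 11.5 and 3.64 FPKM in Cthrc1-/-. Here too the groups were separate, with a fitted log2 difference of -1.0 ± 0.42 (edgeR adjusted p 0.149). The 8 mural cell genes summed to 130 to 140 FPKM in WT and 43.7 to 106 FPKM in Cthrc1-/-, and their part in the Pdgfrb values was not tested. Replicate 3 of Cthrc1-/- was lowest for both receptors.

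Ly6a and Cd34 had the largest fitted log2 changes of the members on day 0. Ly6a, also known as Sca-1 (ENSMUSG00000075602, chr15:74994877-74998031, minus strand), had 264, 143 and 263 FPKM in WT and 104, 101 and 38.7 FPKM in Cthrc1-/-. Its log2 change was -1.54 ± 0.49, with an edgeR adjusted p of 0.0842 and a DESeq2 adjusted p of 0.0173. Reads of Ly6a may be shared with its paralog Ly6c1 for a small part of the transcript: 1.45% of its 100-base stretches occur in Ly6c1 too. Cd34 (ENSMUSG00000016494, chr1:194938819-194961279, plus strand) had 61.5, 68.4 and 62.0 FPKM in WT and 43.5, 22.5 and 8.87 FPKM in Cthrc1-/-. The WT samples were close together and the knockout samples spread 4.91-fold, all below WT. The fitted log2 difference was -1.43 ± 0.49, with an edgeR adjusted p of 0.0962 and a DESeq2 adjusted p of 0.0247. Endothelium carries both proteins, and the 10 endothelial genes summed to 104 to 113 FPKM in WT and 35.2 to 91.2 FPKM in Cthrc1-/-, with none at 0. Follicle bulge and upper follicle genes, 9 in number, summed to 2365 to 2512 FPKM in WT and 529 to 1926 FPKM in Cthrc1-/-. Most of that sum was Krt15, with a mean of 2310 FPKM in WT and 1103 FPKM in Cthrc1-/-. As a list these genes went both ways: 5 of 9 had a log2 change above 0 and 4 below, with a median of 0.06. Ranges did not overlap for 3 with Cthrc1-/- lower, beside 19.8% of all genes, and for 2 with it higher, beside 21.5%. The part of either list in these values was not tested.

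Dpp4 (ENSMUSG00000035000, chr2:62330073-62412231, minus strand) had another order of samples within the knockout. It had 8.23, 7.30 and 7.21 FPKM in WT and 5.01, 4.60 and 8.02 FPKM in Cthrc1-/-. Replicate 3, the lowest Cthrc1-/- day 0 sample for the other 9 members, was the highest for Dpp4 and lay within the WT range. The log2 change was -0.49 ± 0.25 (edgeR adjusted p 0.218). Pi16 (ENSMUSG00000024011, chr17:29317680-29330593, plus strand) had 17.9, 14.1 and 13.5 FPKM in WT and 17.2, 10.1 and 4.81 FPKM in Cthrc1-/-. Its groups overlapped, since knockout replicate 1 was as high as WT, and the log2 change was -0.58 ± 0.61 (edgeR adjusted p 0.559).

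The transcription factor genes had lower means in Cthrc1-/- as well. Twist2 (ENSMUSG00000007805, chr1:91801461-91848028, plus strand) had 10.2, 9.40 and 10.8 FPKM in WT and 8.30, 4.83 and 1.61 FPKM in Cthrc1-/-. All knockout samples lay below WT, and they spread 5.14-fold among themselves. The fitted log2 difference was -1.11 ± 0.48, with an edgeR adjusted p of 0.165. En1 (ENSMUSG00000058665, chr1:120602418-120607992, plus strand) had 2.99, 3.02 and 3.07 FPKM in WT and 2.19, 1.99 and 1.39 FPKM in Cthrc1-/-. The groups were separate, with a log2 change of -0.80 ± 0.45 (edgeR adjusted p 0.265). Prrx1 (ENSMUSG00000026586, chr1:163245119-163313710, minus strand) had 7.03, 9.28 and 3.97 FPKM in WT and 3.92, 5.24 and 2.48 FPKM in Cthrc1-/-. Its WT samples were spread and overlapped the knockout, and the log2 change was -0.89 ± 0.39 (edgeR adjusted p 0.170).

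Lrig1 (ENSMUSG00000030029, chr6:94604529-94700158, minus strand) was the member that was not lower. It had 27.3, 21.8 and 22.8 FPKM in WT and 29.4, 30.6 and 21.0 FPKM in Cthrc1-/-, and the groups overlapped. The log2 change was 0.08 ± 0.27 (edgeR adjusted p 0.875), and it was -0.02 and -0.04 without knockout replicate 1 or 2. Lrig1 also marks upper follicle keratinocytes. Of the 9 bulge and upper follicle genes, 5 had a log2 change above 0 and 4 below, with a median of 0.06. A separate list of 10 epidermal keratinocyte genes summed to between 8479 and 9214 FPKM in WT and between 4450 and 9191 FPKM in the knockout. The part of either list in the Lrig1 values was not tested. Lrig1 overlaps the protein-coding gene Slc25a26 on the other strand, which averaged 1.35 FPKM over the samples, and the miRNA gene Mir7041 on its own strand (2.43 FPKM). Noncoding genes that overlap the other members averaged at most 1.01 FPKM (Mir7025, within Pdgfra).

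**Figure D3:**
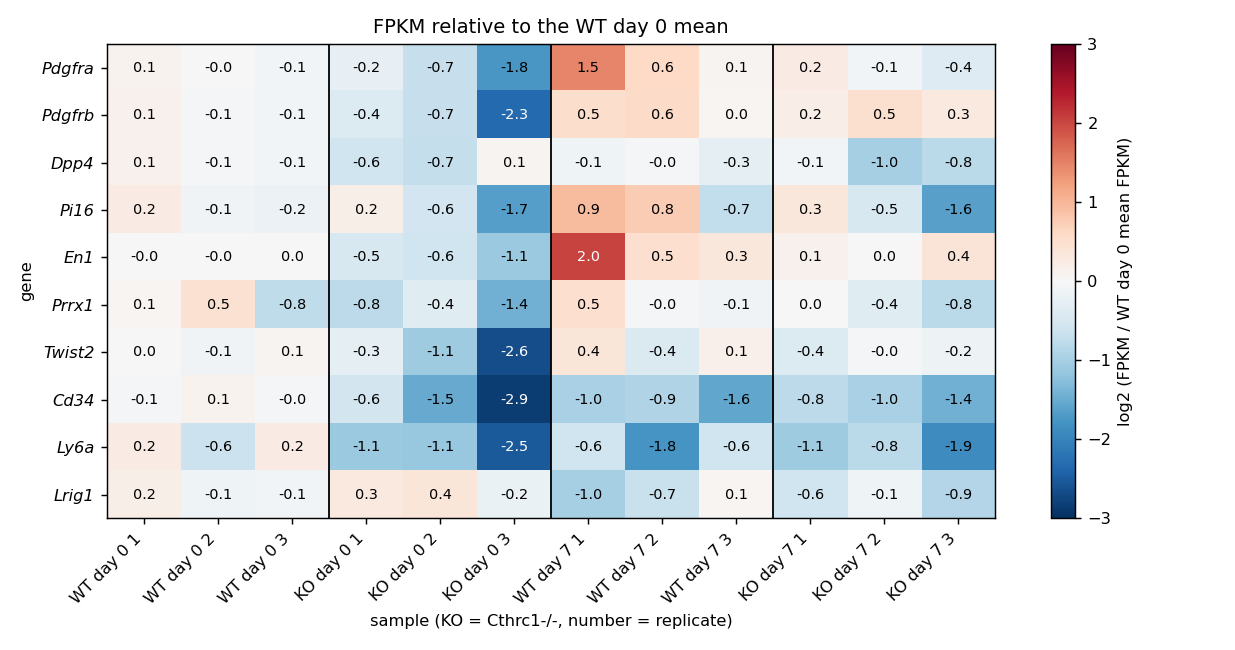
FPKM of each marker (rows) in each of the 12 samples (columns) relative to the mean of WT day 0, on the log2 scale; the number in a cell is that value. Most rows are lowest in Cthrc1-/- day 0 replicate 3, and the rows of Dpp4 and Lrig1 are not.

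Over the 12 samples, 8 of 10 members had their lowest value in Cthrc1-/- day 0 replicate 3, the library with the highest inner root sheath sum. Without it, 7 members had ranges that did not overlap with Cthrc1-/- lower, beside 24.6% of all genes, and the median log2 change of the members was -0.60. Lrig1 then lay above all WT samples, as did 26.6% of all genes. Without replicate 1 of Cthrc1-/- instead, the fall in Cd34 passed (log2 change -2.13, edgeR adjusted p 0.0179), as did that in Twist2 (log2 change -1.76, edgeR adjusted p 0.0361). In that setting 2146 of the 14313 genes passed, and 2 members. The part of hair follicle tissue in these values was not tested.

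Other fibroblast genes were examined on day 0 as lists. Of the 14 pan-fibroblast genes, 14 had a log2 change below 0, with a median of -1.34, and 12 had ranges that did not overlap. By edgeR 1 of them fell, the collagen chain gene Col1a2, from 1250 ± 215 to 243 ± 196 FPKM (SD, n = 3 each; edgeR adjusted p 0.0480), and 0 rose. In a list of 10 genes of Pi16- and Dpp4-type fibroblasts, which shares Mfap5 and Clec3b with the former, 8 were below 0 with a median of -1.34. The complement regulator gene Cd55 of this list fell from 19.7 ± 0.493 to 5.78 ± 2.41 FPKM (edgeR adjusted p 0.0388), and 0 rose. Of 8 papillary fibroblast genes, 6 were below 0 and 2 above, with a median of -0.32. Sparc of this list, which encodes a matrix glycoprotein, fell (log2 change -2.11, edgeR adjusted p 0.0400). Lef1, a Wnt pathway transcription factor that is also made in hair matrix and papilla, rose (log2 change 3.11, edgeR adjusted p 0.0496). Among 8 reticular and fascia genes 0 rose and 0 fell, with a median of -1.08. Of 10 dermal papilla genes, Corin and Lef1 rose and 0 fell, with a median of 0.96. The protease gene Corin went from 0.259 ± 0.0655 to 4.95 ± 5.73 FPKM (edgeR adjusted p 0.0308). Of 10 wound fibroblast genes, a list that holds Cthrc1 itself, 3 fell (Acta2, Tagln and Cthrc1) and 0 rose, with a median of -0.69. Acta2 went from 140 ± 6.52 to 61.3 ± 22.2 FPKM (edgeR adjusted p 0.0357).

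The platelet-derived growth factor pathway was taken from a list of 15 genes that includes both receptors. On day 0, 12 of 15 had a log2 change below 0, 2 fell and 0 rose. Those that fell were Pdgfrl, a receptor-like gene (log2 change -2.14, edgeR adjusted p 0.0467), and Pik3r1, a regulatory subunit of phosphoinositide 3-kinase (log2 change -0.94, edgeR adjusted p 0.0335). The ligand genes Pdgfa, Pdgfb, Pdgfc and Pdgfd had log2 changes of -0.21, -0.78, -1.24 and -1.14, with edgeR adjusted p from 0.0695 to 0.517. Of 14 paralogs of the members tested, 1 rose and 0 fell on day 0, though 13 had a log2 change below 0. The one that rose was Kit, a receptor tyrosine kinase related to Pdgfra that melanocytes also carry, from 0.613 ± 0.107 to 2.99 ± 2.25 FPKM (edgeR adjusted p 0.0288). Values were lower without passing for Twist1 (30.4 ± 2.09 FPKM in WT, 14.8 ± 7.96 in Cthrc1-/-, edgeR adjusted p 0.0967) and Prrx2 (6.73 ± 0.613 and 4.43 ± 0.892 FPKM, edgeR adjusted p 0.0821). Twist1 was thus about as much lower, at a log2 change of -1.12, as Twist2, and neither passed. For Fap, the paralog of Dpp4 that marks activated fibroblasts, the difference was -0.16 on the log2 scale (edgeR adjusted p 0.803).

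**Figure D4:**
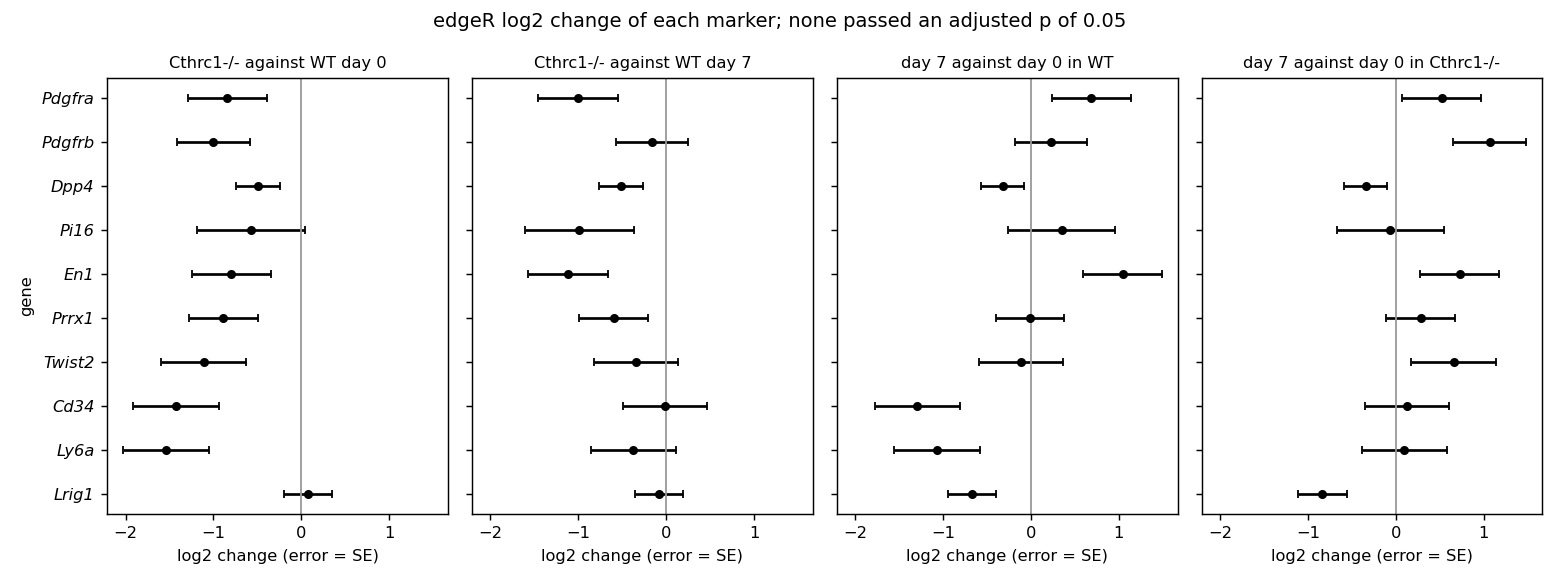
edgeR log2 change (x axis) of each marker (rows) in 4 comparisons, with the standard error as a bar; values below 0 are lower in Cthrc1-/- or on day 7. No marker passed an adjusted p of 0.05, and the widest distance from 0 was that of Ly6a on day 0, at -1.54.

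On day 7 the genotypes overlapped for every member. All 10 members had a log2 change below 0, with a median of -0.44 beside -0.01 over all genes, of which 51.0% were below 0. The direction turned for Cd34 with total-count scaling (0.08) and upper-quartile scaling (0.04), and for Lrig1 without WT replicate 3 (0.20). Ranges that did not overlap, with Cthrc1-/- lower, occurred in 2.67% of all genes. By edgeR 0 of 10 were called, beside 0.0210% of all genes. DESeq2 called 0 members and 62 of the 14313 genes. By limma on log2(FPKM + 1) and log2(FPKM + 0.1), 0 members were called, beside 8 and 5 genes. At an unadjusted p under 0.05 there was 1 member, En1, against 3.14% of all genes in that direction. On this day too, 10 of 10 skeletal muscle genes (median -1.46) and 7 of 8 immune genes tested (median -0.90) were below 0, with 0 called. Some lists went the other way, also with 0 called. Above 0 were 9 of 10 endothelial genes (median 0.42) and 7 of 8 mural cell genes (median 0.39). So were 7 of 7 adipocyte genes tested (median 0.28) and 10 of 10 epidermal keratinocyte genes (median 0.31). The part of these lists in the members' values was not tested.

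En1 had 12.3, 4.28 and 3.84 FPKM in WT day 7 and 3.32, 3.06 and 3.99 FPKM in Cthrc1-/- day 7. WT replicate 1 was 3.20 times the lowest WT sample, and the remaining WT samples lay close to the knockout. The log2 change was -1.12 ± 0.45 (edgeR adjusted p 0.907), and -0.25 without WT replicate 1. Pdgfra had the same order of WT samples, with 18.9, 10.4 and 7.26 FPKM in WT and 8.11, 6.51 and 5.24 FPKM in Cthrc1-/-. Its fitted log2 difference was -1.0 ± 0.45 (edgeR adjusted p 0.908), and -0.44 without WT replicate 1. Pi16 had 29.3, 25.9 and 9.10 FPKM in WT and 19.2, 10.8 and 4.93 FPKM in Cthrc1-/-, and spread 3.22-fold within WT and 3.90-fold within Cthrc1-/- (log2 change -0.99 ± 0.62, edgeR adjusted p 0.957). WT replicate 1, the sample with the highest immune sum, held the highest of the 12 values for 5 members: Pi16, Twist2, Pdgfra, Prrx1 and En1. The same library had the lowest of the 12 sums for the epidermal keratinocyte genes (2596 FPKM) and for the bulge and upper follicle genes (122 FPKM). The part of immune cells or of epithelium in these values was not tested. Without that library the median log2 change of the 10 members was -0.25.

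Cd34 had 32.5, 34.1 and 21.7 FPKM in WT day 7 and 37.0, 32.6 and 23.7 FPKM in Cthrc1-/- day 7, which differ by -0.01 ± 0.48 on the log2 scale. Pdgfrb had 26.4, 27.4 and 19.1 FPKM in WT and 21.3, 25.6 and 22.6 FPKM in Cthrc1-/-, which differ by -0.16 ± 0.41 on the log2 scale. For both genes the samples of the genotypes were interleaved. Ly6a (148, 65.3 and 147 FPKM in WT, and 107, 127 and 60.4 in Cthrc1-/-) had 1 low sample in each genotype, with a log2 change of -0.37 ± 0.48. Twist2 ranged from 7.50 to 13.0 FPKM in WT and from 7.59 to 9.93 FPKM in Cthrc1-/-. Prrx1 ranged from 6.25 to 9.60 and from 3.85 to 6.80 FPKM, and Dpp4 from 6.25 to 7.37 and from 3.79 to 7.13 FPKM. For Dpp4 2 knockout samples were below all WT samples, and the log2 change was -0.51 ± 0.25 (edgeR adjusted p 0.921). Lrig1 ranged from 11.99 to 25.1 FPKM in WT and from 13.1 to 21.9 FPKM in Cthrc1-/-. Of the 14 pan-fibroblast genes 14 were below 0 with a median of -0.58, and 0 were called.

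The next comparison was of days within WT. Of the 10 members, 4 had a log2 change above 0 and 6 below, with a median of -0.06. Of all genes 49.8% were above 0. By edgeR 0 of 10 were called, where 13.1% of all genes were. DESeq2 called 1 member (Cd34) and 3551 of the 14313 genes. By limma on log2(FPKM + 1) and log2(FPKM + 0.1), 0 members were called, beside 1911 and 1998 genes. An unadjusted p under 0.05 was found for 3 members, of which En1 was higher, like 15.7% of all genes, and Cd34 and Lrig1 were lower, like 16.9%. Total-count scaling moved the median over all genes to 0.20, and with it 6 members were above 0.

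Cd34 had the largest fitted log2 change of the members between days in WT, though on mean FPKM that of En1 was larger (log2 ratio 1.17, against -1.12 for Cd34). Its 61.5, 68.4 and 62.0 FPKM on day 0 stood against 32.5, 34.1 and 21.7 FPKM on day 7, with no overlap. The fitted log2 difference was -1.29 ± 0.49, with an edgeR adjusted p of 0.0980. With only the WT groups in the fit the edgeR adjusted p was 0.0217, and with DESeq2 it was 0.0378. Ranges that did not overlap with day 7 lower occurred in 14.1% of all genes. Of 9 genes of the follicle bulge and upper follicle, where mouse Cd34 is also made, 3 fell on day 7 in WT (Krt15, Sox9 and Lhx2) and 0 rose. Their sum went from 2365 to 2512 FPKM down to 122 to 672 FPKM. Of 7 adipocyte genes tested 6 fell and 0 rose. By edgeR 7.10% of all genes fell. Of 10 endothelial genes, 7 had a log2 change above 0 (median 0.46) and 0 were called. The endothelial sum was 104 to 113 FPKM on day 0 and 102 to 211 FPKM on day 7. The part of these lists in the Cd34 values was not tested. Ly6a had a lower mean too, but replicate 2 of day 0 (143 FPKM) lay below 2 day 7 samples, and the log2 change was -1.07 ± 0.49 (edgeR adjusted p 0.157). Lrig1 had 27.3, 21.8 and 22.8 FPKM on day 0 and 11.99, 15.2 and 25.1 FPKM on day 7. Its log2 change was -0.67 ± 0.27 (edgeR adjusted p 0.122), and it passed without WT day 7 replicate 3, the high sample, at -0.96 (edgeR adjusted p 0.0449). In that setting 2043 of the 14313 genes passed.

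En1 went the other way in WT. It had 2.99 to 3.07 FPKM on day 0 and 12.3, 4.28 and 3.84 FPKM on day 7, so that all day 7 samples were above all day 0 samples. Day 7 was higher without overlap in 29.8% of all genes, and the log2 change was 1.04 ± 0.45 (edgeR adjusted p 0.138). For Pdgfra the difference was 0.68 ± 0.45 on the log2 scale (edgeR adjusted p 0.321), and its day 7 replicate 3 (7.26 FPKM) was within the day 0 range. The other 5 members had log2 changes between -0.32 (Dpp4) and 0.35 (Pi16). Of 10 wound fibroblast genes 4 rose in WT and 0 fell: the matrix genes Tnc and Col12a1, Lrrc15 and the Wnt modulator Sfrp2. Col12a1, a fibril-associated collagen, went from 5.30 ± 1.97 to 40.0 ± 13.9 FPKM (edgeR adjusted p 0.00928). The pan-fibroblast list had 0 of 14 called and a median of -0.17.

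The days were then compared within Cthrc1-/-. Of 10 members, 7 had a log2 change above 0 and 3 below, with a median of 0.20 beside -0.01 over all genes, of which 48.8% were above 0. Again 0 were called by edgeR, beside 1.46% of all genes. DESeq2 called 1 member (Lrig1) and 1409 of the 14313 genes. By limma on log2(FPKM + 1) and log2(FPKM + 0.1), 0 members were called, beside 775 and 773 genes. At an unadjusted p under 0.05 there were 2 members: Pdgfrb was higher, like 9.62% of all genes, and Lrig1 lower, like 8.52%. Without Cthrc1-/- day 0 replicate 3 the members' median was -0.06.

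Pdgfrb had 14.0, 11.5 and 3.64 FPKM on day 0 and 21.3, 25.6 and 22.6 FPKM on day 7 in Cthrc1-/-. All day 7 samples were above all day 0 samples, as in 21.5% of all genes. By the fit, day 7 was higher by 1.07 ± 0.42 on the log2 scale (edgeR adjusted p 0.210). Mural genes, which mark the other main Pdgfrb-bearing cells, summed to 43.7 to 106 FPKM on day 0 and 154 to 213 FPKM on day 7, with 0 of 8 called. Of the 10 endothelial genes, 2 rose (Tie1 and Egfl7) and 0 fell. En1 was the other member without overlap, with 1.39 to 2.19 FPKM on day 0 and 3.06 to 3.99 FPKM on day 7 (log2 change 0.73 ± 0.45, edgeR adjusted p 0.428). Twist2 had a log2 change of 0.66 ± 0.48 and Pdgfra of 0.53 ± 0.45, and for both the highest day 0 sample reached into the day 7 range. Cd34 had 43.5, 22.5 and 8.87 FPKM on day 0 and 37.0, 32.6 and 23.7 FPKM on day 7, which differ by 0.13 ± 0.48 on the log2 scale. The wide day 0 group enclosed the day 7 values. Lrig1 had 29.4, 30.6 and 21.0 FPKM on day 0 and 15.9, 21.9 and 13.1 FPKM on day 7 (log2 change -0.83 ± 0.27, edgeR adjusted p 0.146, DESeq2 adjusted p 0.0420). Of 10 wound fibroblast genes 3 rose (Acta2, Sfrp2 and Col12a1) and 0 fell. Mean Acta2 went from 61.3 FPKM on day 0, where it was below WT (140 FPKM), to 191 FPKM on day 7, beside 155 FPKM in WT.

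The interaction of genotype and day tests if the 2 genotypes changed unequally from day 0 to day 7. By edgeR 0 of 10 members passed, beside 0.0140% of all genes, and 0 had an unadjusted p under 0.05, beside 15.1% of all genes. DESeq2 called 0 members and 681 of the 14313 genes. By limma on log2(FPKM + 1) and log2(FPKM + 0.1), 0 members were called, beside 4 and 1 genes. The largest estimate was that of Cd34, at 1.42 ± 0.68 (edgeR adjusted p 0.355): its log2 change between days was -1.29 in WT and 0.13 in Cthrc1-/-. Ly6a followed at 1.17 ± 0.68 and Pdgfrb at 0.84 ± 0.58. The day 0 samples of each genotype enter both its own change between days and the day 0 difference, so these values are not independent of those above.

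The members were then set against Pdgfra within each library, a ratio that does not depend on how libraries are scaled. The Cd34 to Pdgfra ratio on the log2 scale was 3.05, 3.34 and 3.26 in WT day 0, above all 9 other samples. It was 2.90, 2.40 and 2.12 in Cthrc1-/- day 0, 0.78, 1.71 and 1.58 in WT day 7, and 2.19, 2.32 and 2.18 in Cthrc1-/- day 7. On day 0 the ratio was thus lower in Cthrc1-/- without overlap, as for 3.40% of all genes, and on day 7 it was higher without overlap, as for 19.1% of all genes. Between days in WT it was lower without overlap, as for 23.6% of all genes, and the same held for Dpp4 and Ly6a. The Lrig1 to Pdgfra ratio was highest in Cthrc1-/- day 0, at 2.33, 2.84 and 3.36, against 1.69 to 1.88 in WT day 0. The ratio to Pdgfra was higher without overlap in 54.1% of all genes in that comparison. Between days in Cthrc1-/- the Lrig1 ratio was lower without overlap, as for 17.4% of all genes. The En1 ratio overlapped between the genotypes on day 0, with -1.31 to -1.07 in WT and -1.42 to -0.55 in Cthrc1-/-. The Dpp4 to Pdgfra ratio was 1.98 in Cthrc1-/- day 0 replicate 3 and at most 0.16 in each of the 11 other samples. No test was made on these ratios.

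**Figure D5:**
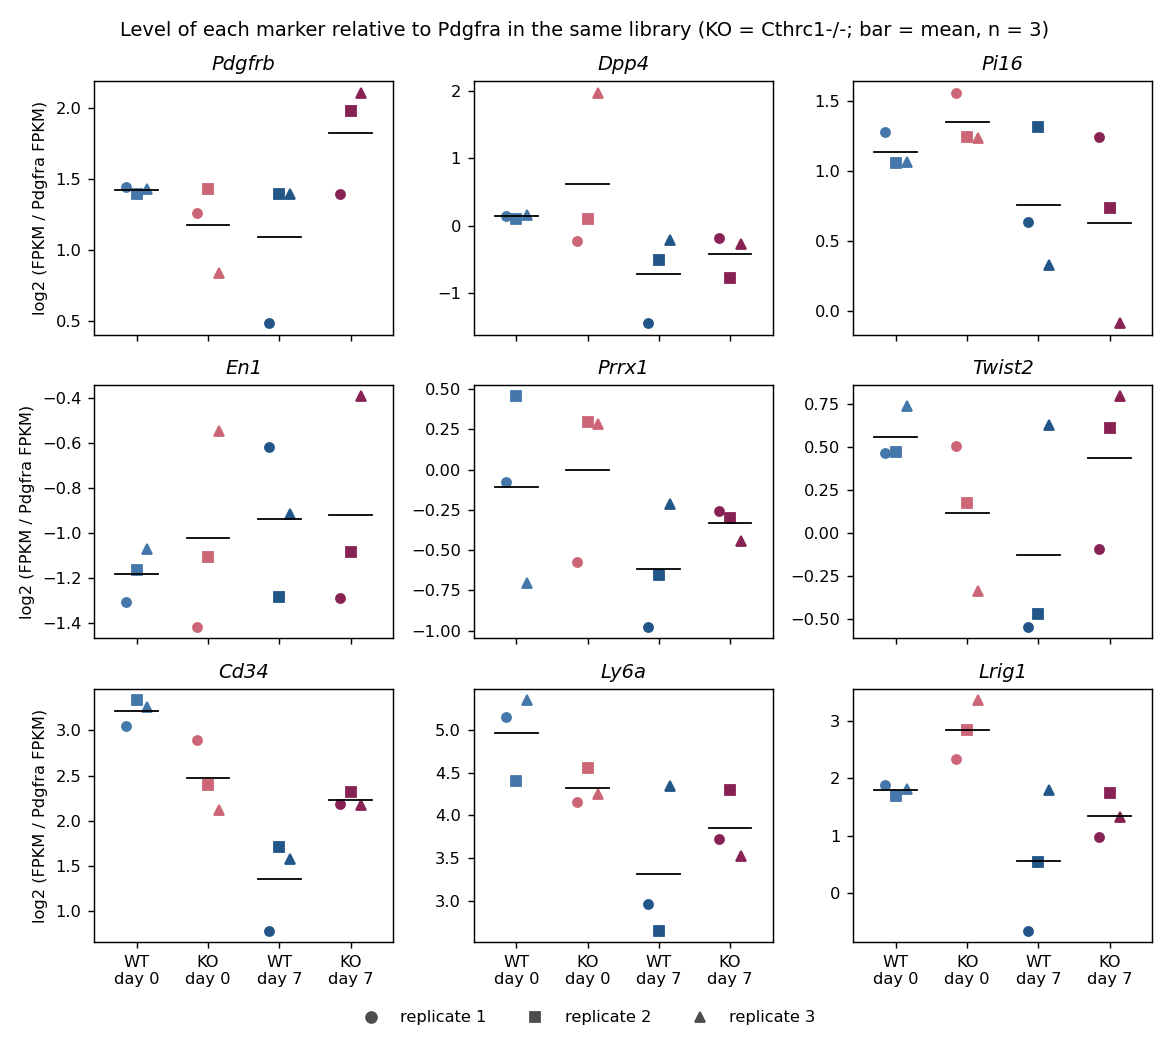
Level of 9 markers relative to Pdgfra in the same library (log2 of the FPKM ratio, y axis) by group, with replicates as symbols and the mean as a line. For Cd34 the 3 WT day 0 samples (3.05 to 3.34) sit above all others, and for Dpp4 Cthrc1-/- day 0 replicate 3 (1.98) sits apart.

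Likeness of profiles was measured as the root mean square difference between log2(FPKM + 1) profiles over the 12 samples, each centred on its own mean. Among the members the closest pair was Pdgfra and En1 (0.27), followed by Pdgfrb and Twist2 (0.31), and the farthest was Pdgfrb and Lrig1 (0.93). Cd34 was closest to Ly6a (0.52), and Dpp4 was closest to Prrx1 (0.48). Of all genes tested, those nearest to Pdgfra were Lman1 (0.16), Fermt2, Antxr2, Jdp2 and Sec24d (0.19). Nearest to En1 were Dpep2 (0.13), Plod3, Selenon, Fkbp11 and Napsa (0.19), and nearest to Prrx1 were Ets2 (0.24), Nucb2, Armh4, G530011O06Rik and Khdrbs3 (0.26). Nearest to Pi16 were Slit3 (0.33), Htra3, Chrdl1, Serping1 and Adamts5 (0.35). The profiles of Pi16 and Prrx1 themselves spread by 0.72 and 0.46 on this measure, so that neither had a gene as near, relative to its own spread, as Pdgfra (0.61) or En1 (0.58). Nearest to Lrig1 were Tax1bp1 (0.17), Hspa4l, Lin7b, Ppp3ca and Ccdc181 (0.20). These are descriptions over samples that fall into 4 groups, and they share the libraries' depth and tissue makeup.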

How the data were processed

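Messenger RNA of dermis was sequenced in 12 samples, 3 biological replicates for each genotype and day, per the labels. The authors deposited counts and FPKM values per gene in 1 table. The submitters' processing notes name cutadapt 1.9, HISAT2 2.0.4, StringTie 1.3.4d, UMI-tools, DESeq2, edgeR and GRCm38, without roles, and the annotation and strand setting are not given in the sources used here. GENCODE M21 (GRCm38) named 55141 of the 55401 gene IDs. Genes with a mean of at least 1 FPKM were tested on the deposited counts with edgeR 4.0.16 (R 4.3.3): TMM scaling, 1 quasi-likelihood fit over all 12 samples, and Benjamini-Hochberg adjustment over all 14313 genes. An FPKM of 0.0001, listed where the count was 0, was taken as 0. The scripts were tested on simulated counts with known changes between WT day 0 and WT day 7. The edgeR test recovered 11 of 100 genes changed 2-fold and 66 of 100 changed 4-fold. A member not called may thus still differ. DESeq2 1.42.0 and limma 3.58.1 on log2(FPKM + 1) or log2(FPKM + 0.1), computed from the deposited FPKM, were alternatives, as were other scalings and filters and leaving out each library. Of all genes, the text names the members, called members of lists and the 5 genes nearest in profile; a few others were chosen after their values were seen. The members and lists were chosen with earlier results of these data known. Same-numbered replicates did not deviate together in every pair, so no block was used. The sample labels do not say whether replicate numbers carry the pairing of wounds, so this check cannot decide whether samples were paired. Reads are not independent molecules, so counts give counting error only.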

Additional observations from a re-analysis of the deposited data

How the results depend on the processing

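Of 845 values of single members under an alternative, 782 kept their direction and their side of the threshold, 9 passed the threshold where the reported value did not, and 54 turned direction. The values that turned were at most 0.41 in size as reported. Lrig1 on day 0 ranged from -0.038 to 0.27 (log2) with a library left out. On day 7, Cd34 was 0.080 and 0.082 with limma, 0.084 with total-count scaling and 0.044 with upper-quartile scaling. With a library left out it ranged from -0.22 to 0.16, and Lrig1 from -0.32 to 0.20. Between days in WT, Prrx1 was 0.031 with DESeq2, 0.17 and 0.20 with limma (pseudocounts 1 and 0.1), 0.16 and 0.036 with total-count and upper-quartile scaling, 0.014 with no filter and 0.090 with a filter at 5 FPKM. Left-out libraries gave -0.28 to 0.28 for Prrx1 and -0.27 to 0.10 for Twist2, which was 0.026 with limma at either pseudocount and 0.071 with total-count scaling. Between days in Cthrc1-/-, Pi16 was 0.089 and 0.096 with limma, 0.13 with total-count scaling and 0.042 with the filter at 5 FPKM. Left-out libraries gave -0.63 to 0.50 for Pi16, -0.30 to 0.83 for Cd34 and -0.26 to 0.36 for Ly6a. In the interaction, Pdgfra was 0.0046 and 0.087 with limma, and left-out libraries gave -0.50 to 0.36. They gave -0.34 to 0.20 for Dpp4, -0.97 to 0.15 for Pi16, -0.64 to 0.50 for En1, -0.0024 to 0.59 for Prrx1 and -0.40 to 0.13 for Lrig1.

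DESeq2 called 2 members on day 0, 1 between days in WT and 1 between days in Cthrc1-/-. The fit of the WT groups alone called 1 member, and 2102 of the 14313 genes. With a library left out, 0 to 2 members were called on day 0 and 0 to 1 between days in WT. Without Cthrc1-/- day 0 replicate 3, 1 member (Lrig1) was higher without overlap on day 0, beside 26.6% of all genes. Between days in Cthrc1-/-, 1 member (Lrig1) was then lower without overlap, beside 11.1% of all genes. Counts over all genes depended more on the setting. On day 0, 827 genes were called, against 2787 with DESeq2, 508 with the filter at 5 FPKM, 275 with no filter, 19 with only the groups compared and 18 to 2146 with a library left out (2146 without Cthrc1-/- replicate 1). On day 7, 3 were called, against 62 with DESeq2, 8 and 5 with limma and 0 to 4 with a library left out. Between days in WT, 1880 were called, against 3551 with DESeq2 and 527 to 2043 with a library left out. Between days in Cthrc1-/-, 209 were called, against 1409 with DESeq2, 775 and 773 with limma, 747 and 332 with total-count and upper-quartile scaling, 89 with only the groups compared and 5 to 522 with a library left out. The interaction called 2, against 681 with DESeq2, 4 and 1 with limma, 1 with either scaling, 1 with no filter, 0 with the filter at 5 FPKM and 0 to 242 with a library left out. The cause was not tested. Genes called higher were 60.8% on day 0, 46.0% between days in WT and 58.9% between days in Cthrc1-/-, and 71.4%, 75.5% and 86.9% with total-count scaling.

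With the replicate number as a block, 1 member was called on day 0 (Cd34, log2 change -1.67, edgeR adjusted p 0.0489), beside 883 of the 14313 genes. The block also gave 0.0094 for Cd34 on day 7, 0.036 for Prrx1 between days in WT, 0.12 for Pdgfra in the interaction, and 1 gene called in the interaction. The correlations of the deviations of same-numbered samples ran from -0.23 to 0.43 over the 4 comparisons, and in none were all 3 pairs over 0.1. With 3 samples a group and the lowest member counts being 195 (En1) and 275 (Twist2), the number of samples limits the precision.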
